A study of Rattus norvegicus with 8 samples.

Results

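The 3 chains of complement C1q were followed in rat spinal cord. They were chosen by Ensembl identifier, ENSRNOG00000012807 for C1qa, ENSRNOG00000012804 for C1qb and ENSRNOG00000012749 for C1qc, and are 3 of the 32883 identifiers in the deposited table, which itself gives no gene symbols. The cord came from Sprague Dawley rats, an outbred laboratory strain, and is called upper lumbar in the series title and upper spinal cord in the sample labels. In the injured group (4 libraries) it was taken 4 days after hemisection at thoracic level 9, in which only one half-side is severed, and the uninjured group (4 libraries) had no spinal cord injury. By its design text, the series compares the transcriptomes of these groups in cord it describes as intact, a state that was not checked here. The sources used here do not give age, sex, any sham surgery or whether each library is 1 animal. The p-values therefore set the group difference against the spread of these libraries only, and part of that spread may be technical. The CEL-Seq2 protocol sequences the 3' end of transcripts and counts unique molecular identifiers (UMIs), short random tags that mark single captured molecules.

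C1q is the recognition part of the first component of complement. Its A, B and C chains, the products of C1qa, C1qb and C1qc, wind together in equal number into collagen-like stalks with globular heads. The heads bind antibody complexes, dying cells and other targets, and the bound molecule activates the proteases C1r and C1s, which start the classical pathway. In the central nervous system C1q is made mainly by microglia, the resident macrophages, and is known for tagging synapses and debris for removal.

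The RefSeq gene table of assembly GRCr8 places the genes in a row on chromosome 5, in the order C1qb, C1qc, C1qa, with 0 other listed genes between them. RefSeq promoter sequences were matched by symbol for 2 of the 3 genes. The 250 bases before the start of C1qa (GRCr8, chr5:154419934-154420183, minus strand) and of C1qb (GRCr8, chr5:154407828-154408077, minus strand) are shown as a description of the sequence. Whether they bear on the rise in counts was not tested. Capitals mark GGAAGT, an extended core of the sites of ETS factors such as the myeloid factor PU.1, and TGCTGA, the half-site of Maf factors, on either strand.
C1qa: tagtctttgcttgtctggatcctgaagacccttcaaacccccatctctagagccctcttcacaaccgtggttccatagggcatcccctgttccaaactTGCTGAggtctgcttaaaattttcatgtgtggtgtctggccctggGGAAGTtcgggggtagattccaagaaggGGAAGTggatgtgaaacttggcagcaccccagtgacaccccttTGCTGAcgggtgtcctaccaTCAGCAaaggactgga
C1qb: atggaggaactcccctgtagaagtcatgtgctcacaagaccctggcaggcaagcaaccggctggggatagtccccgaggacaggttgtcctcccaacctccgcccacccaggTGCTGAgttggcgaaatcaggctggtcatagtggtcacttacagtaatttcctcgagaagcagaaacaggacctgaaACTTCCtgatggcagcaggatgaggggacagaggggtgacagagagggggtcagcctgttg

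In C1qa the letters GGAAGT begin 107 and 79 bases before the start, and TGCTGA begins 152 and 36 bases before it, with its reverse complement at 16. In C1qb the reverse complement of GGAAGT begins 61 bases before the start and TGCTGA 138 bases before it. Among all 33469 RefSeq windows of this length, 19.2% hold GGAAGT, 15.1% hold TGCTGA and 2.77% hold both, on either strand. Neither window holds TGACTCA, the letters of the AP-1 site, which 4.05% of all windows hold. The marked letters do not overlap each other, and a match describes the sequence only, since no binding was measured. The motifs were chosen with earlier results of these data, or the sequences, known. The shares over all windows are therefore a background and no test of enrichment.

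All 3 chains were higher in the injured cord, with mean levels per library total 3.86 times as high for C1qa, 4.45 times for C1qb and 4.87 times for C1qc. C1qb carried most of the UMIs, C1qc fewer and C1qa the fewest, an order seen in 8 of 8 libraries. The chains together had 253 ± 53.0 CPM in uninjured and 1135 ± 281 CPM in injured cord (SD, n = 4), where CPM are UMIs per 1000000 UMIs of the library. Library totals ran from 112264 to 320199 UMIs, and the injured libraries were on the whole deeper, so that CPM are given beside the counts. In bulk cord, fewer cells of a type and less RNA per cell cannot be told apart, nor can more cells and more RNA per cell.

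C1qb encodes the B chain. In uninjured libraries 1 to 4 it had 26, 26, 18 and 30 UMIs, or 118, 232, 134 and 221 CPM. In injured libraries 1 to 4 it had 204, 355, 140 and 141 UMIs, or 748, 1109, 552 and 723 CPM. Each injured library lay above each uninjured one, as for 7.52% of all tested genes. The lowest injured value was more than 2 times the highest uninjured value. Injured library 2 was the highest of all and injured library 3 the lowest of the injured. The group means were 783 ± 234 and 176 ± 58.5 CPM (SD, n = 4). The log2 fold change was 2.04 (SE 0.29, adjusted p = 0.000804, edgeR quasi-likelihood test with Benjamini-Hochberg adjustment over 3073 tested genes). At the same threshold, an adjusted p below 0.05, 2.28% of the tested genes were called higher. The 4 injured libraries differed from each other by more than counting error, with a coefficient of variation of 29.9% where counting alone gives 6.98%.

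C1qc encodes the C chain. It had 18, 4, 6 and 7 UMIs in uninjured libraries 1 to 4, or 81.4, 35.6, 44.6 and 51.5 CPM. It had 97, 89, 53 and 38 UMIs in injured libraries 1 to 4, or 355, 278, 209 and 195 CPM. The groups again did not overlap, as for 7.52% of all tested genes, and library 1 was the highest in both. The means were 259 ± 73.7 CPM in injured and 53.3 ± 19.8 in uninjured cord (SD, n = 4), and the fitted log2 difference was 2.08 (SE 0.30, edgeR adjusted p = 0.000960). Among the uninjured libraries the coefficient of variation, 37.2%, was close to the 34.6% of counting alone, while among the injured it was 28.4% against 12.2%.

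C1qa encodes the A chain and rested on the fewest counts. It had 6, 2, 2 and 5 UMIs in uninjured libraries 1 to 4, or 27.1, 17.8, 14.9 and 36.8 CPM. It had 25, 31, 13 and 26 UMIs in injured libraries 1 to 4, or 91.6, 96.8, 51.2 and 133 CPM. The groups did not overlap, a separation fixed by the filter described below. The nearest libraries did overlap within counting error: injured 3 had an exact (Clopper-Pearson) 95% interval of 27.3 to 87.6 CPM and uninjured 4 one of 11.9 to 85.8. These intervals cover counting error only. The means were 93.2 ± 33.6 CPM in injured and 24.1 ± 9.90 in uninjured cord (SD, n = 4), and the fitted log2 difference was 1.76 (SE 0.41, edgeR adjusted p = 0.0297). The spread of the uninjured libraries, 41.0%, was no larger than the 52.9% that counting alone gives at these depths.

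**Figure D1:**
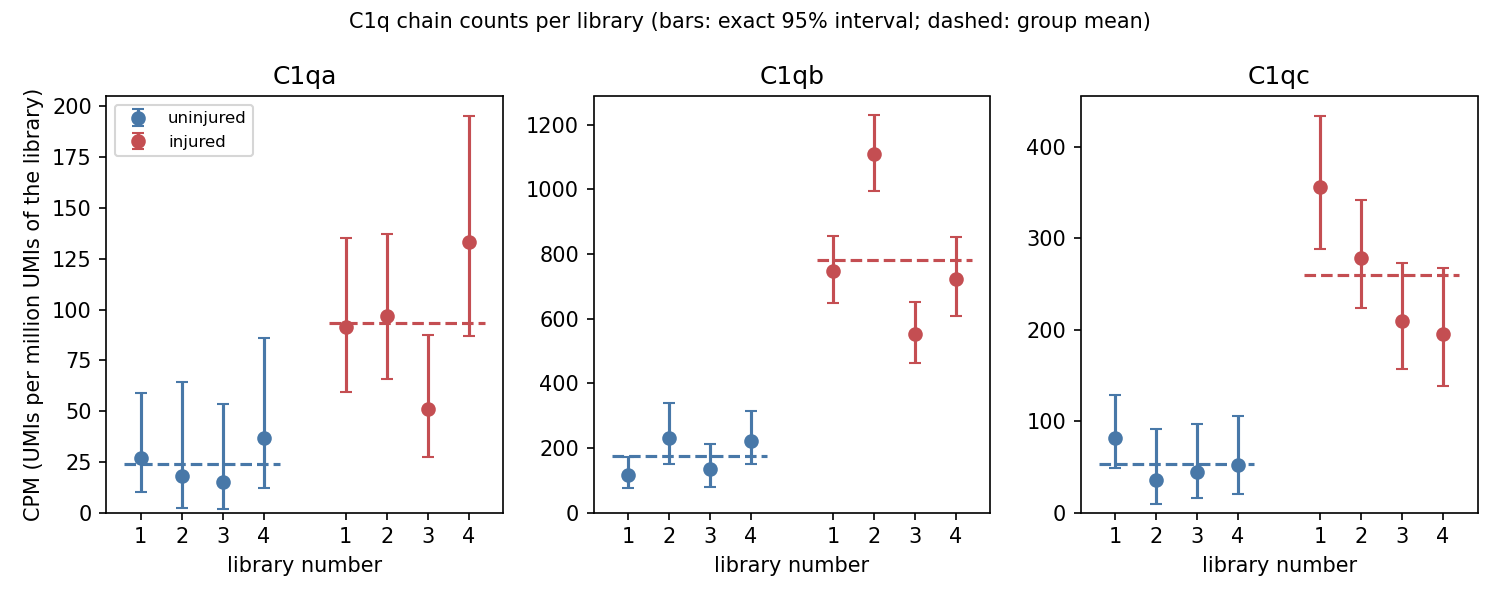
CPM by library total (vertical axis, linear, a separate scale for each chain) for C1qa, C1qb and C1qc in uninjured libraries 1 to 4 (blue) and injured libraries 1 to 4 (red). Points are single libraries, bars are exact 95% intervals for counting error and dashed lines are group means. All injured points lie above all uninjured points in each panel, with the smallest gap in C1qa (51.2 against 36.8). Such separation was found for 7.52% of all tested genes.

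The call of C1qa was the least firm of the 3. Its adjusted p rose to 0.120 without uninjured library 1, 0.111 without uninjured 2, 0.111 without uninjured 3 and 0.0512 without injured 4 (edgeR), with log2 fold changes of 1.75, 1.65, 1.62 and 1.54. Without injured 1 or injured 2 it fell below the filter on low counts and was not tested. DESeq2 gave an adjusted p of 0.0501 and limma-voom one of 0.141. The adjusted p of C1qb and of C1qc stayed below 0.05 in each of these fits, at most 0.00931 for C1qb and 0.00850 for C1qc. Of all genes given an adjusted p, DESeq2 called 1.92% higher and limma-voom 1.56%.

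A filter on low counts stood before the test, and it bears on how these calls can be read. It asked for about 48.0 CPM in at least 4 libraries. C1qb reached that level in 4 injured and 4 uninjured libraries, C1qc in 4 and 2, and C1qa in 4 and 0. C1qa and C1qc thus passed it through the injured group, where they were high, so that the number of chains called is no support in itself. With no filter, the log2 fold changes were 1.86 for C1qa, 2.16 for C1qb and 2.18 for C1qc (edgeR adjusted p = 0.00239, 2.33e-11 and 1.02e-07), and 1.78% of 12612 genes were called higher.

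By the size of the rise, C1qc stood 15th, C1qb 17th and C1qa 30th of the 3073 tested genes. A log2 fold change of 2 or more was fitted for 0.586% of tested genes, C1qb and C1qc among them. The median over all tested genes was -0.03, against a median of 2.04 over the 3 chains. By average level C1qb was 306th, C1qc 1059th and C1qa 2481st. Complete separation of the groups with the injured libraries on the higher side, as the 3 chains showed, was found for 7.52% of all tested genes. For C1qa it was fixed by the filter, which it reached in 4 injured and 0 uninjured libraries. C1qc also passed through the injured group, so for both chains the ranks and this share are description only.

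**Figure D2:**
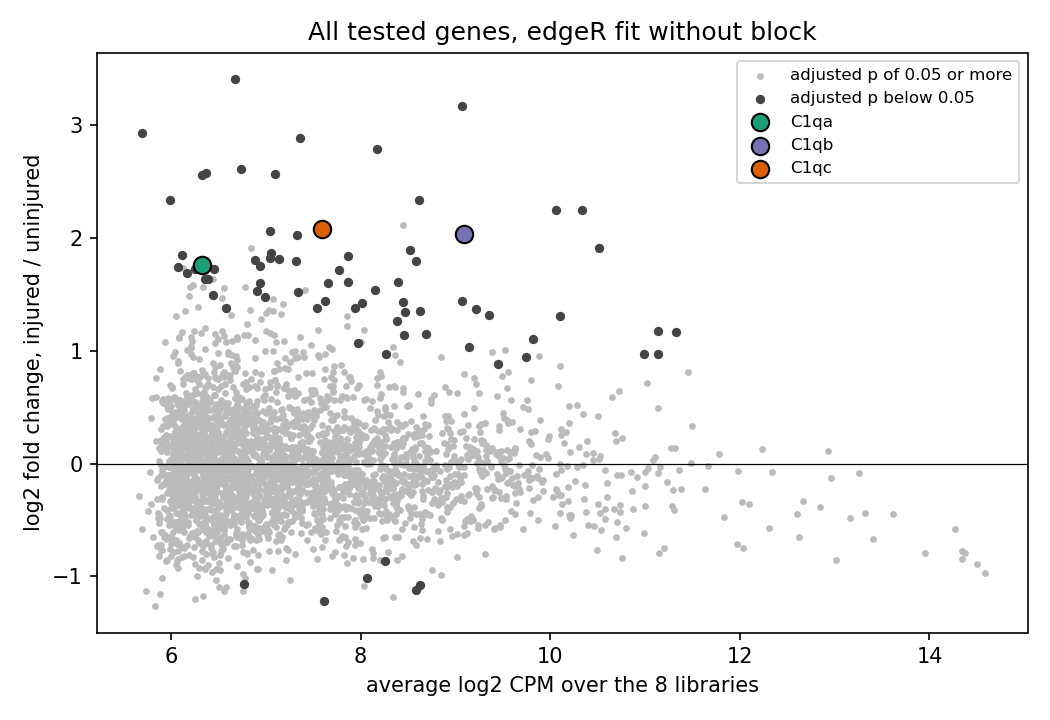
Log2 fold change of injured over uninjured cord (vertical axis) against average log2 CPM over the 8 libraries (horizontal axis) for the 3073 tested genes, with the 3 C1q chains as large coloured points. Dark points have an edgeR adjusted p below 0.05 and grey points do not. The chains lie at log2 fold changes of 1.76, 2.04 and 2.08 across a wide range of levels, C1qa near the lower end.

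Scaled by library totals, the log2 fold changes were 1.87 for C1qa, 2.18 for C1qb and 2.20 for C1qc (edgeR). Each was higher than in the fit above (1.76, 2.04 and 2.08). With total counts in place of TMM factors (trimmed mean of M-values, a scaling set by the bulk of the genes), the median of all tested genes moved from -0.03 to 0.09. Relative to that median, the log2 fold changes were 1.79 for C1qa, 2.07 for C1qb and 2.12 for C1qc with TMM, and 1.78, 2.09 and 2.11 with total counts. A shift shared by all genes cancels in these relative values, so their likeness does not show how far scaling moved the chains. Depth differed between the groups, so counts were also drawn down to 112264 UMIs in each library. C1qb then had medians over 11 draws of 14, 26, 15 and 24 UMIs in uninjured and 85, 126, 63 and 82 in injured libraries, and C1qc 10, 4, 5 and 6 against 39, 31, 24 and 21. C1qa had 3, 2, 1 and 4 UMIs against 10, 11, 6 and 14, and did not pass the filter in any of the draws. By these medians each injured library lay above each uninjured one for all 3 chains, and separation within single draws was not examined. The draws reuse the same counts, and at full depth C1qa and C1qc passed the filter through the injured group, so this is description only. At equal depth the log2 fold changes were 2.02 for C1qb and 2.09 for C1qc (edgeR adjusted p = 0.000529 and 0.00298, medians over the draws). The highest C1q count, 355, was far below the highest count of the table, 4047.

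**Figure D3:**
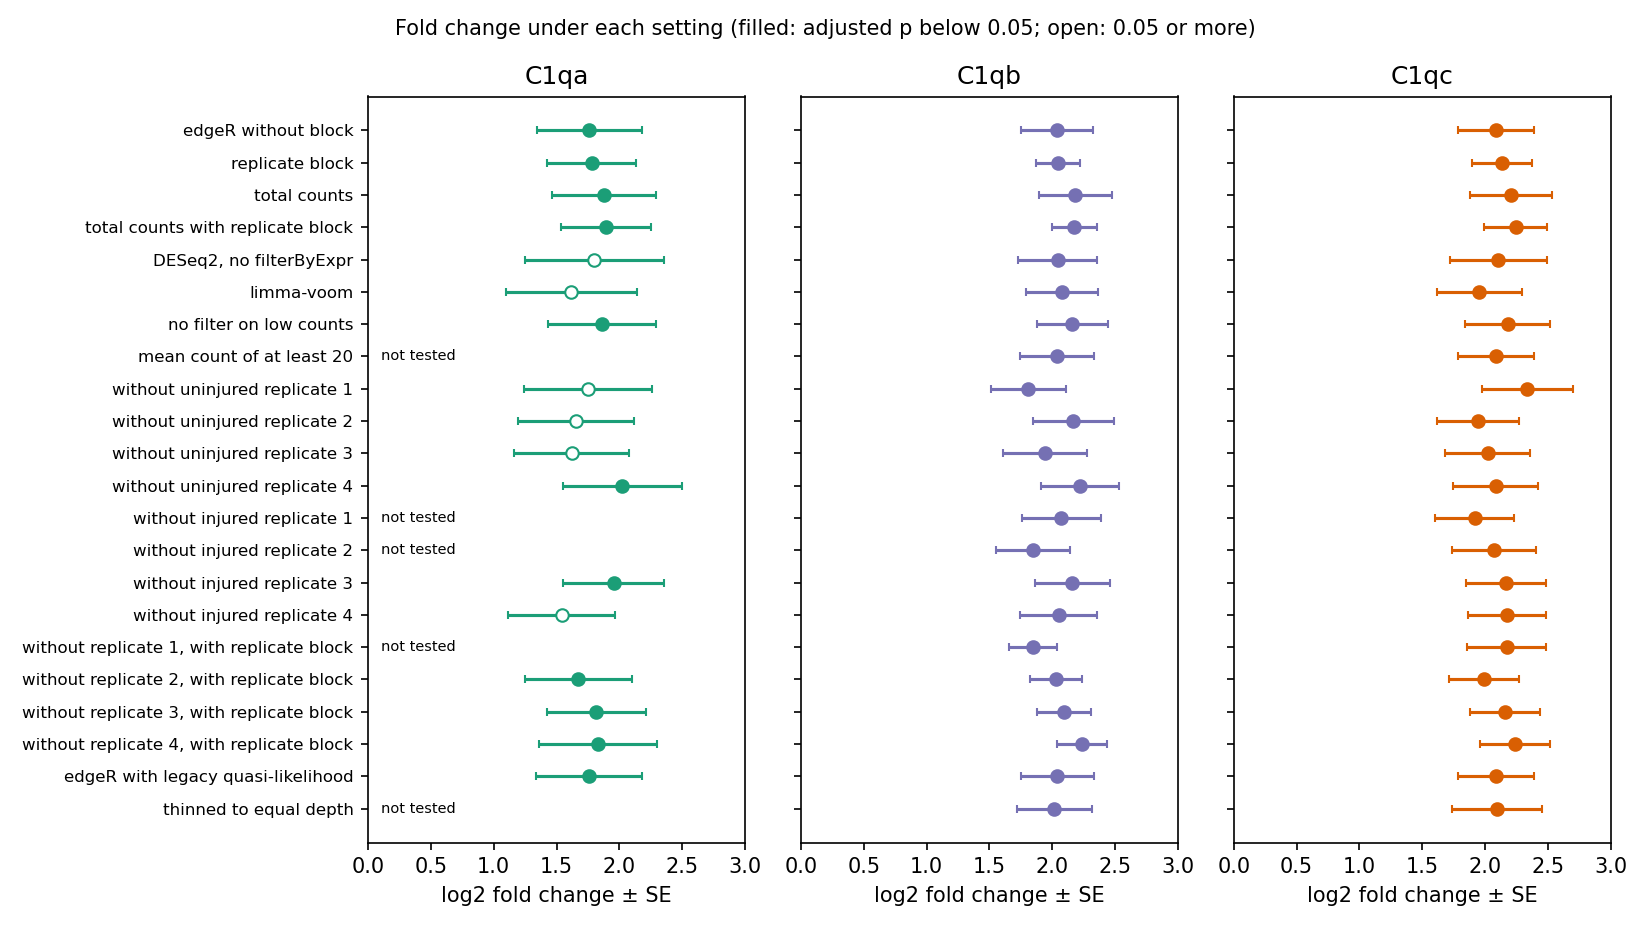
Log2 fold change with its standard error (horizontal axis) for C1qa, C1qb and C1qc under each setting of the analysis (vertical axis). Filled points have an adjusted p below 0.05, open points 0.05 or more, and settings in which C1qa was not tested are marked. C1qb and C1qc are filled throughout, while C1qa has 6 open points, between 1.54 and 1.80.

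The libraries of the 2 groups share the numbers 1 to 4 in their titles, and libraries of the same number deviated together. Within numbers 1 to 4, the injured library exceeded the uninjured one by 6.36, 4.79, 4.12 and 3.28 times for C1qb, by 4.37, 7.80, 4.68 and 3.78 times for C1qc and by 3.38, 5.43, 3.45 and 3.62 times for C1qa. The direction was the same in 4 of 4 numbers for each chain. That follows from each injured library lying above each uninjured one, so it adds nothing to that separation. With the number as a block the 3 chains were called as without it, where 6.77% of tested genes were called higher. For the chains together the ratios were 5.28, 5.20, 4.20 and 3.40, higher in numbers 1 and 2 than in 3 and 4, a difference that was not tested. The C1qa and C1qc ratios of number 2 rest on 2 and 4 uninjured UMIs.

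Whether the chains rose by the same amount was examined within libraries, where library scaling cancels. C1qb made up 68.5% ± 12.2 of the C1q UMIs in uninjured and 68.5% ± 4.98 in injured cord (SD, n = 4). C1qc made up 22.1% ± 10.3 and 23.2% ± 5.51, and C1qa 9.46% ± 2.94 and 8.30% ± 2.98. The group means of each share thus lay closer together than the libraries within a group. In uninjured cord the C1qb share ran from 52% in library 1 (26 of 50 C1q UMIs, exact 95% interval 37.4% to 66.3%) to 81.2% in library 2 (26 of 32, 63.6% to 92.8%). In injured cord it ran from 62.6% in library 1 (204 of 326, 57.1% to 67.8%) to 74.7% in library 2 (355 of 475, 70.6% to 78.6%). These shares are of UMIs at annotated 3' ends and are not divided by gene length, since the protocol counts a molecule once. Whether the annotation catches the 3' end of each chain equally well is not known, so they are not read as shares of RNA.

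**Figure D4:**
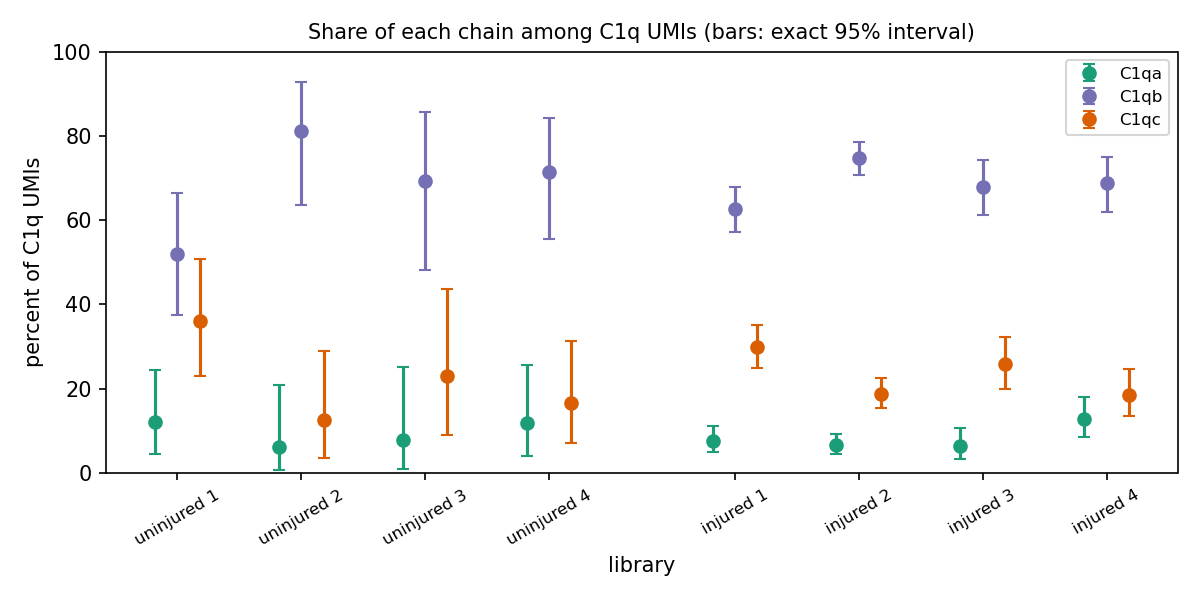
Percent of the C1q UMIs of a library (vertical axis) that came from C1qa, C1qb and C1qc in each of the 8 libraries (horizontal axis), with exact 95% intervals for counting error. C1qb is the highest in all 8 libraries, from 52% to 81.2%, and the intervals are wider in the uninjured libraries, which hold 26 to 50 C1q UMIs, than in the injured ones, which hold 205 to 475.

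The log2 ratio of C1qa to C1qb was -3.07 ± 0.49 in injured and -2.70 ± 0.59 in uninjured cord (SD, n = 4), a difference of -0.38 (95% interval -1.47 to 0.99, two-sided exact permutation p = 0.343, adjusted over the 3 ratios 0.514). For C1qa to C1qc the difference was -0.45 (-1.54 to 0.97, exact permutation p = 0.286, adjusted 0.514), and for C1qb to C1qc it was -0.07 (-1.48 to 1.47, exact permutation p = 0.829, adjusted 0.829). No difference in rise between the chains was detectable, but the intervals, from inverting the exact test, still allow one of about 2 times or more in either direction. The smallest p that 4 against 4 libraries allow is 0.0286.

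The chains did not share an order of libraries within the injured group. C1qa was highest in injured library 4, C1qb in injured 2 and C1qc in injured 1, while C1qa and C1qb were both lowest in injured 3 and C1qc in injured 4. In the uninjured group C1qa was highest in library 4, C1qb in library 2 and C1qc in library 1. The library with the highest value of each chain thus had the same number in both groups, an observation made after the values were seen, and 1 that rests on few counts in uninjured cord.

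The genes most like the chains were sought among the other 3070 tested genes, by Pearson's r over the 8 libraries between the log2 CPM of each gene and the mean log2 CPM of the 3 chains. The 5 highest had r from 0.970 to 0.986. The highest, ENSRNOG00000010208, rose by 3.17 on the log2 scale (edgeR adjusted p = 0.000101), from a mean of 12.8 UMIs per uninjured library to 222 per injured library. The next, ENSRNOG00000023546, had r of 0.975 and rose by 1.91 (edgeR adjusted p = 0.000508), from 77.5 to 543 UMIs per library. These mean counts are not scaled to depth. The injured libraries were on the whole deeper, so the counts differ by more than the fitted rises. The points share their libraries and their depth and fall into 2 groups, so these values largely restate the difference between the groups. For deviations from the group means, the 5 highest r ran from 0.885 to 0.958. Those 5 genes had log2 fold changes of -0.27 to 0.68 with edgeR adjusted p from 0.408 to 0.958, so that none of them was called.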

How the data were processed

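Per the labels' protocols, cord was frozen in liquid nitrogen and libraries followed CEL-Seq2 on an Illumina HiSeq1500. The table the authors deposited holds raw, unscaled UMI counts for each Ensembl identifier. The submitters' processing notes name HISAT2 2.0.4, HTSeq 0.6.0 and the build Rnor_6.0. The annotation release, UMI collapsing and use of strand are not given there. Reads of an overlapping or antisense gene could therefore be counted with a chain. Column names were mapped through the title codes, with 0 unmatched.

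The counts were fitted with edgeR 4.0.16 in R 4.3.3 (filterByExpr with min.count 10 and min.total.count 15, TMM, glmQLFit with bias-adjusted deviances, glmQLFTest, all 8 libraries), which tested 3073 genes with 89.0% of all counts. Standard errors were computed as log2 fold change over the root of F. Log2 CPM values used a prior count of 2, and chain ratios a count offset of 0.5. DESeq2 1.42.0 (without filterByExpr) and limma 3.58.1 (voom) were alternatives, beside those in the closing section. Ratios were tested with SciPy 1.17.1. The fits were run on simulated counts, drawn independently for each library and only for genes past the filter. The simulation therefore does not bear on the shared numbers or on the filter. The median SE over the tested genes was 0.32 in log2, with 4 libraries a group.

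Same-number libraries deviated together over the 3073 genes (r = 0.389, 0.297, 0.342 and 0.423, other pairs -0.311 to 0.241). Deviations from a group mean cancel over the group, so positive same-number values by themselves push the other values down. The numbers come from the titles and their use as pairs from these values. The block was thus chosen from these same data, so its smaller adjusted p for the chains are no separate support. The symbols of the 3 chains came with their selection. The RefSeq table used gave no Ensembl identifiers, so 0 of the 32883 identifiers could be matched to it. The lists of complement genes and cell type markers written by symbol were therefore not analysed here, and the labelled tissue was not checked against markers. Named genes are the chains and the genes most like them by r (the 5 highest, of which 2 are named). The members, lists and motifs were chosen with earlier results of these data, or the sequences, known.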

Additional observations from a re-analysis of the deposited data

How the results depend on the processing

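C1qb and C1qc kept their direction and their call in all 21 alternatives run for each (log2 fold changes 1.81 to 2.24 and 1.92 to 2.34). C1qa kept its direction in all 16 and lost its call in 6: with DESeq2 (1.80, adjusted p = 0.0501), with limma-voom (1.62, adjusted p = 0.141) and without any of uninjured 1, 2 or 3 or injured 4. Leaving out 1 library gave C1qa 1.54 to 2.02, C1qb 1.81 to 2.22 and C1qc 1.92 to 2.34. C1qa was not tested at a mean count of at least 20, at equal depth, or without injured 1, injured 2 or both libraries of number 1. In each case its counts fell below the filter. With the shared number as a block, the log2 fold changes were 1.78, 2.05 and 2.13 for C1qa, C1qb and C1qc (edgeR adjusted p = 0.00186, 1.14e-07 and 6.53e-06), and the block changed no call of the chains. For the chain ratios the block, as a paired exact permutation, gave adjusted p of 0.375, 0.375 and 0.625. The 4 pairs formed by the shared number, which no label calls pairs, allow no p below 0.125. The ratio differences stayed above 0.05 in all 10 alternatives each, but with 1 library left out no p below 0.0571 is possible, so this says nothing of stability. The sign of the C1qb to C1qc difference varied (-0.45 to 0.23).

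Over all tested genes, 70 were called higher and 6 lower. The counts were 208 and 140 with the block, 284 and 65 with total counts and the block, and 225 and 13 without a filter. They were 105 and 3 with total counts, 83 and 19 with DESeq2, and 71 and 10 at a mean count of at least 20. With 1 library fewer the higher genes numbered 38 to 115 and the lower ones 0 to 15 (edgeR, the 0 without injured 1, with 139 lower at an unadjusted p under 0.05). With the block and without both libraries of number 1, 2, 3 or 4, 95, 158, 144 and 318 genes were higher and 47, 91, 63 and 202 lower. Of the alternatives, edgeR's earlier quasi-likelihood method was added after seeing the data. What moved these counts was not tested. Depth limits C1qa most, with 2 to 6 UMIs per uninjured library.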
